A study of Mus musculus with 6 samples.

Results

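Glycolysis, pyruvate entry and lactate handling were described through 31 genes, read by gene symbol from the deposited table of 50559 genes. The set holds glucose transporters, the glycolytic enzymes, the regulators of phosphofructokinase, both common lactate dehydrogenase subunits, monocarboxylate transporters, the mitochondrial pyruvate carrier, a subunit of pyruvate dehydrogenase and its kinases. All 31 were in the table, and all 31 were among the 20257 genes with enough counts to be tested. RNA of mouse hypothalamus was sequenced in 6 libraries, 3 labelled SRC1 KO and 3 labelled WT. SRC1 (steroid receptor coactivator 1) is the product of Ncoa1 and helps nuclear receptors activate transcription. The labels give genotype and tissue, and no treatment, age, strain, sex or design of the deleted allele, and do not say whether the replicates are separate animals. All p-values therefore rest on the variation among these 6 samples, part or all of which may be technical.

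Cells take up glucose through transporters of the Slc2a family and split it to pyruvate in the cytosol, with a net yield of ATP and NADH. Pyruvate is either reduced to lactate by lactate dehydrogenase or carried into mitochondria, where the pyruvate dehydrogenase complex converts it to acetyl-CoA and pyruvate dehydrogenase kinases switch that step off. In brain, endothelium and glia take up much of the glucose, neurons import it through Slc2a3, and monocarboxylate transporters move lactate between cells. The hypothalamus in addition holds neurons and tanycytes that sense glucose. In whole tissue, fewer cells of a type and less RNA per cell cannot be told apart.

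The 4 genes of the set with an unadjusted p under 0.05 were Slc2a1, Hk2, Ldhb and Mpc1, and the DNA just upstream of their first listed start sites is shown because these 4 carry the largest differences relative to their error. The sequences are RefSeq's (table build GRCm38.p6), placed on GRCm39 by exact match, and run 5′ to 3′ on the strand of the gene. They cover chr4:118965692-118965941 (plus strand) for Slc2a1, chr6:82751436-82751685 (minus strand) for Hk2, chr6:142453684-142453933 (minus strand) for Ldhb and chr17:8502369-8502589 (plus strand) for Mpc1, whose window ends where an exon of the table begins. Capitals mark ACGTG or GCGTG on either strand, so that CACGT and CACGC are the same letters read on the other strand. These letters are the core of the site that hypoxia-inducible factors bind.
Slc2a1: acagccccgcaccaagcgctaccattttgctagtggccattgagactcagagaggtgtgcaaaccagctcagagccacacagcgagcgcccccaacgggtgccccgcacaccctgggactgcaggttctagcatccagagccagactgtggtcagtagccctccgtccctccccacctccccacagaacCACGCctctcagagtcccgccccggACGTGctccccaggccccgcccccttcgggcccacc
Hk2: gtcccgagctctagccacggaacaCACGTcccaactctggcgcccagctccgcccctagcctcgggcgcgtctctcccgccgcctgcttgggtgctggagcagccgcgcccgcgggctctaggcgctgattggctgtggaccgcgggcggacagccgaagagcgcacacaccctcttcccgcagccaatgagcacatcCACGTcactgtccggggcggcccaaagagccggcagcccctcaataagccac
Ldhb: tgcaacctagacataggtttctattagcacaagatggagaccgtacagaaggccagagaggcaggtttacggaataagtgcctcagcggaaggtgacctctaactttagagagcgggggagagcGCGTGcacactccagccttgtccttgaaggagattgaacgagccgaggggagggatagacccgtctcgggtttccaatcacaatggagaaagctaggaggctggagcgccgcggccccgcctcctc
Mpc1: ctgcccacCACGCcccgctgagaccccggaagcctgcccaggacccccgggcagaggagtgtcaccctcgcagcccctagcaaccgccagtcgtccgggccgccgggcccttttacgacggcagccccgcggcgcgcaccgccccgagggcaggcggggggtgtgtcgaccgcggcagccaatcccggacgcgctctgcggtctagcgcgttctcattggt
Slc2a1 and Hk2 each held 2 matches in these windows, and Ldhb and Mpc1 held 1 each. Promoter entries were found for 29 of the 31 genes, with 46 windows of 250 upstream bases in all, since some genes have several starts. Of these, 36 windows (78.3%) held a match, against 12679 of 32851 windows (38.6%) over all genes, and a palindromic CACGTG counts on both strands. By gene, 26 of 29 had a match in at least 1 window, and the share by gene over all genes was not computed. Some windows of the same gene overlap, so a site can be counted more than once. The windows of the set also had more G and C, with a median of 61.6%, against 52.4% over all windows, and the part of base composition in the share was not tested. A match is a run of letters and shows no binding.

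The deposited counts summed to between 36613507 and 46755553 per library. Ncoa1, the targeted gene, fell to 40.3, 37.2 and 38.7 CPM in the SRC1 KO libraries, against 127, 122 and 130.1 CPM in the WT libraries, and the groups did not overlap (CPM is a count scaled to library size by TMM; log2 fold change −1.71 ± 0.065 SE, edgeR quasi-likelihood test, adjusted p = 1.87e-06). Hypothalamic transcripts were present throughout, but their unscaled counts varied between libraries. Hcrt (the orexin precursor) had 6675 to 7350 counts in SRC1 KO and 2716 to 6308 in WT, without overlap. Agrp had 50 to 121 in SRC1 KO and 152 to 531 in WT, also without overlap. Pmch had 10485 to 16181 in SRC1 KO and 5987 to 10900 in WT. Avp had 1279 to 3285 in SRC1 KO and 1023 to 6117 in WT. Oxt had 638 to 5854 in SRC1 KO and 1627 to 7711 in WT. Trh had 3840 to 7388 in SRC1 KO and 2946 to 7570 in WT. The parts of library depth and of the dissection in these counts were not tested. Over all 20257 genes, 169 (0.834%) passed an adjusted p of 0.05, 49 higher (0.242%) and 120 lower (0.592%) in SRC1 KO. Of 12 oligodendrocyte markers, 6 passed as higher, and all 12 log2 fold changes were positive. Their summed level was 6995 to 9326 CPM in SRC1 KO and 4307 to 5514 CPM in WT. Of 12 markers of ependyma and tanycytes, 8 passed as lower, and all 12 log2 fold changes were negative. Their sums were 93.1 to 111 CPM in SRC1 KO and 241 to 262 CPM in WT. Of 10 meningeal markers 1 passed as lower, and all 10 log2 fold changes were negative. The meningeal sums were 61.7 to 65.1 CPM in SRC1 KO and 65.8 to 286 CPM in WT. Of 8 tested pituitary markers 1 passed as lower. The numbers of markers that passed depended on the tool and the libraries. Of the oligodendrocyte markers DESeq2 called 12, limma-voom 1, its form with sample quality weights 11, and edgeR called 0 without SRC1 KO replicate 1 and WT replicate 1, the pair with most growth hormone counts. Of the ependymal and tanycyte markers these 4 fits called 11, 7, 10 and 5, of the meningeal markers 4, 1, 2 and 0, and of the pituitary markers 3, 3, 4 and 2. Over all genes, the same 4 fits called 821, 103, 401 and 29. No marker passed for neurons, astrocytes, microglia, oligodendrocyte precursors, endothelium and pericytes, choroid plexus, red blood cells or skeletal muscle by the main edgeR test. In that order, an unadjusted p under 0.05 was reached by 3 of 12, 5 of 12, 2 of 10, 3 of 8, 2 of 12, 3 of 8, 0 of 5 and 0 of 4 tested markers, beside 13.0% of all genes. DESeq2 called 3 neuron, 2 astrocyte, 1 microglial, 0 precursor, 1 endothelial, 2 choroid plexus, 0 red blood cell and 0 muscle markers, while limma-voom called none of these, and with sample quality weights it called 1 neuron and 2 choroid plexus markers. Growth hormone counts, a sign of pituitary tissue in a dissection, were 280, 7 and 1 in SRC1 KO and 477, 0 and 0 in WT. The pituitary marker sums were lower in SRC1 KO without overlap, at 38.2 to 52.3 CPM, against 86.0 to 119 CPM in WT. Of the 8 pituitary markers tested, 6 log2 fold changes were negative and 2 positive. Cga had 15, 1 and 3 counts in SRC1 KO and 184, 225 and 502 in WT.

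None of the 31 genes passed the threshold, beside 0.834% of all genes tested (edgeR quasi-likelihood test, lowest adjusted p = 0.101, for Mpc1). At an unadjusted p under 0.05 there were 4, beside 13.0% of all genes. DESeq2 called 1 of the 31, Mpc1, and limma-voom called 0 with or without sample quality weights. Over all 20257 genes, DESeq2 called 821, limma-voom 103, and limma-voom with quality weights 401. The log2 fold change was positive for 26 and negative for 5 of the 31 genes, with a median of 0.09 and a range of −0.45 to 0.27, beside 51.1% positive and a median of 0.00 over all genes tested. The 5 negative genes were Slc2a1, Hk2, Ldha, Pdk1 and Pfkfb3. Scaled by library totals alone, which lowers the median of all genes by 0.03, 24 were positive, and Aldoc and Pfkfb4 became negative. Standard errors ran from 0.059 to 0.207, and for 29 of the 31 the 95% interval of the fold lay within 1.5-fold either way. The exceptions were Hk2, whose interval reached down to 0.59-fold, and Slc16a3, whose interval reached up to 1.66-fold.

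The groups did not overlap for 6 of the genes, 3 higher in SRC1 KO (Slc2a3, Ldhb and Mpc1) and 3 lower (Slc2a1, Hk2 and Pdk1), beside 17.6% of all genes (8.58% higher and 9.03% lower). The other 25 overlapped. The plot of the 31 genes by library shows that the spread within a group was often shared between genes. WT replicate 3 was the highest of its group for 20 of the 31 genes, and SRC1 KO replicate 2 was the lowest of its group for 21. The summed level of the 31 genes was 11376, 10785 and 11428 CPM in SRC1 KO and 10284, 10064 and 11307 CPM in WT, so WT replicate 3 lay within the SRC1 KO range. Per exon length, in TPM (counts over exon length, scaled to the same total in each library), the 31 genes made up 1.31% of all transcripts in SRC1 KO and 1.25% in WT. These sums overlapped too, at 13438, 12849 and 13015 TPM in SRC1 KO and 12232, 12243 and 12999.5 TPM in WT.

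**Figure D1:**
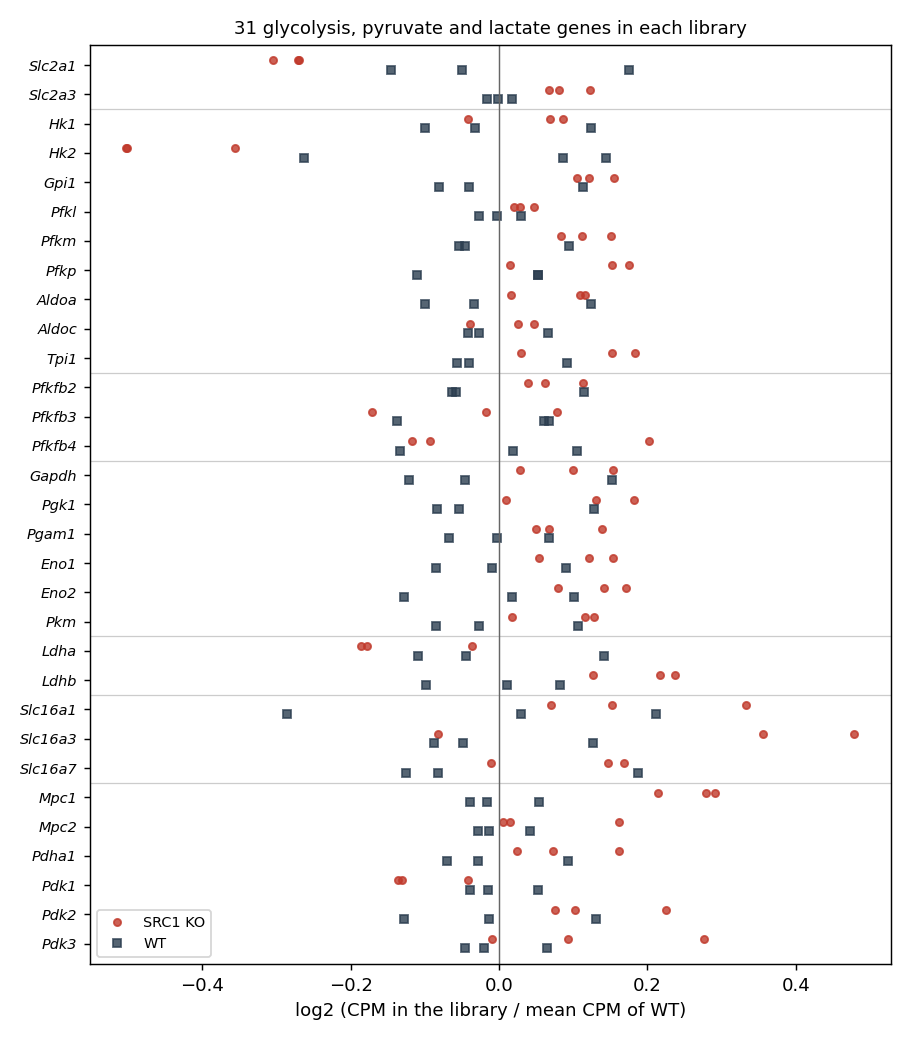
Level of each of the 31 genes in each library, as log2 of its CPM over the WT mean (horizontal axis). Circles are the 3 SRC1 KO libraries and squares the 3 WT libraries, lines part the genes by role, and the circles of Slc2a1, Hk2 and Pdk1 lie below all squares while those of Slc2a3, Ldhb and Mpc1 lie above them.

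**Figure D2:**
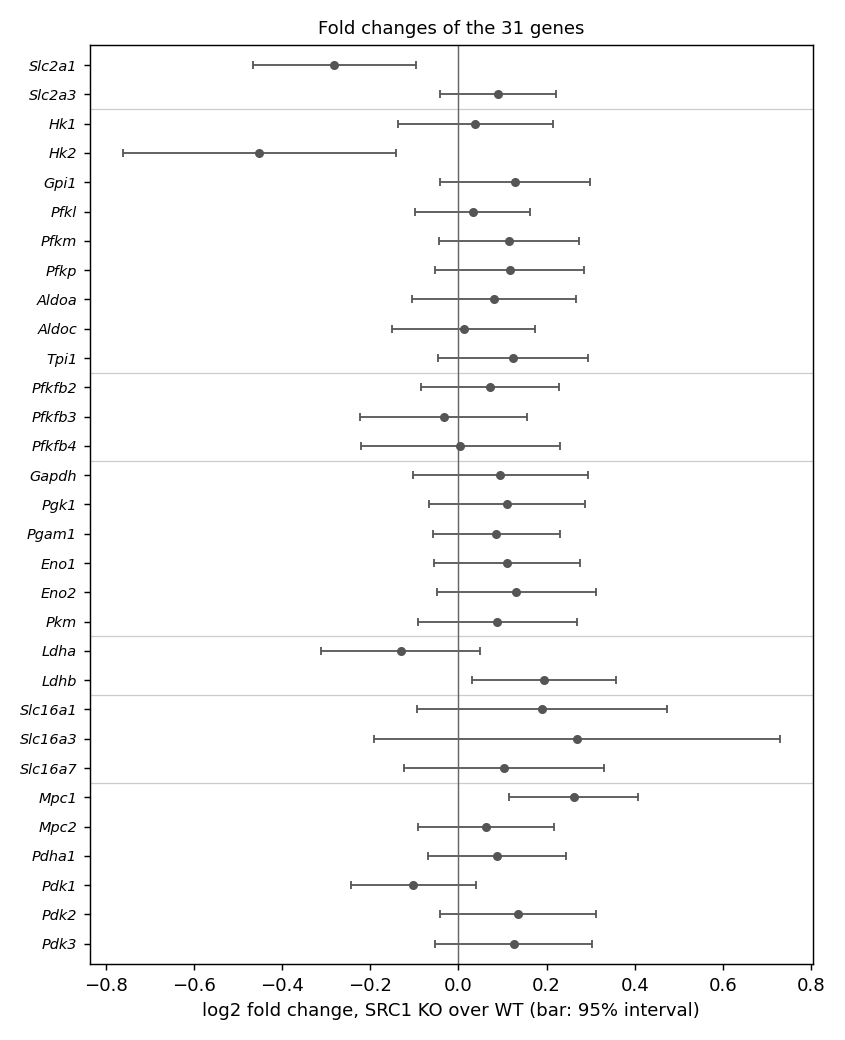
Fitted log2 fold change of SRC1 KO over WT for the 31 genes, with 95% intervals as bars (edgeR quasi-likelihood fit). Most points lie between 0 and 0.2, and the intervals of Slc2a1, Hk2, Ldhb and Mpc1 leave out 0 before adjustment.

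The glucose transporters differed in sign. Slc2a1 (chromosome 4, 118965942 to 118994527, plus strand, GRCm39, as are all positions of the table) encodes GLUT1, the carrier of the blood-brain barrier and of glia. It had 86.6, 84.5 and 86.5 CPM in SRC1 KO, against 101, 94.4 and 118 CPM in WT. All SRC1 KO libraries were below all WT libraries, and they lay closer together than the WT libraries did. The means were 85.9 ± 1.19 CPM in SRC1 KO and 104 ± 12.1 CPM in WT (SD, n = 3 each), a fold of 0.823 with an interval of 0.724 to 0.935 (log2 fold change −0.28 ± 0.083 SE), and edgeR's adjusted p was 0.161. Without WT replicate 3, the log2 fold change was −0.18, and with no filter on low counts Slc2a1 passed the threshold, at an adjusted p of 0.0228. The sum of the endothelial and pericyte markers overlapped between groups, at 352 to 386 CPM in SRC1 KO and 269 to 386 CPM in WT. The lowest of these sums was that of WT replicate 3, the library with most Slc2a1. The astrocyte sums were 5013 to 5418 CPM in SRC1 KO and 5160 to 5835 CPM in WT, the highest being that of the same WT replicate 3. The part of cell composition in the Slc2a1 difference was not tested.

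Slc2a3 encodes GLUT3, the high-affinity transporter of neurons. It had 141, 137 and 136 CPM in SRC1 KO, against 128, 131 and 129 CPM in WT. The groups did not overlap, but the difference was small, with a log2 fold change of 0.09 ± 0.059 (SE) and an adjusted p of 0.601 by edgeR. The neuron markers summed to 6162 to 6864 CPM in SRC1 KO and 5815 to 6286 CPM in WT.

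Among the enzymes that turn glucose into triose phosphates, Hk2 stood on the low side and the other 8 had positive values. Hexokinases trap glucose in the cell as its phosphate, Hk1 being the main brain form and Hk2 the form known for its response to insulin and hypoxia. Hk2 (chromosome 6, 82702004 to 82751435, minus strand) had 5.17, 5.17 and 5.72 CPM in SRC1 KO, against 7.77, 6.1 and 8.09 CPM in WT. All 3 SRC1 KO libraries were below the lowest WT library. The means were 5.35 ± 0.318 CPM in SRC1 KO and 7.32 ± 1.07 CPM in WT (SD, n = 3 each), a fold of 0.731 with an interval of 0.59 to 0.907 (log2 fold change −0.45 ± 0.14 SE). The unadjusted p of 0.00872 became 0.183 after edgeR's adjustment over all genes. Hk1, which has no such gap, had 399, 365 and 394 CPM in SRC1 KO and 367, 351 and 409 CPM in WT, and its log2 fold change of 0.04 turned to −0.01 without WT replicate 2. In TPM, Hk2 reached 2.78 in SRC1 KO and 3.86 in WT, while Hk1 reached 223 in SRC1 KO and 221 in WT.

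Gpi1, which isomerises glucose phosphate to fructose phosphate, had 764, 737 and 746 CPM in SRC1 KO, against 667, 649 and 742 CPM in WT. WT replicate 3 alone overlapped the SRC1 KO libraries, and the log2 fold change was 0.13 ± 0.077 (SE, adjusted p = 0.56 by edgeR). Phosphofructokinase sets the committed step of glycolysis and has muscle, liver and platelet subunits. Its muscle form Pfkm averaged 476 ± 11.2 CPM in SRC1 KO and 439 ± 25.8 CPM in WT, and its platelet form Pfkp averaged 292 ± 17.3 CPM in SRC1 KO and 269 ± 17.1 CPM in WT (SD, n = 3 each). The liver form Pfkl was close to level, at 139.7 ± 1.33 CPM in SRC1 KO and 137 ± 2.71 CPM in WT (SD, n = 3 each). The log2 fold changes of the 3 subunits were 0.12, 0.12 and 0.03, all within overlapping groups. Aldolase splits the fructose bisphosphate, and its brain form Aldoc is a known astrocyte transcript. Aldoa averaged 1415 ± 54.4 CPM in SRC1 KO and 1338 ± 108 CPM in WT, and Aldoc averaged 1019 ± 31.6 CPM in SRC1 KO and 1011 ± 41.4 CPM in WT (SD, n = 3 each). Aldoc was the nearest to level of the enzymes, with a log2 fold change of 0.01 ± 0.073 (SE) whose sign changed in 5 of 15 alternative settings. Triosephosphate isomerase, Tpi1, averaged 534 ± 29.7 CPM in SRC1 KO and 490.2 ± 27.9 CPM in WT (SD, n = 3 each), and its log2 fold change was 0.12 ± 0.077 (SE).

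The PFKFB enzymes make and break down the fructose bisphosphate isomer that activates phosphofructokinase, and all 3 measured forms overlapped between groups. Pfkfb3, the form with the strongest kinase activity, had 57.1, 53.4 and 48.0 CPM in SRC1 KO, against 49.2, 56.6 and 56.4 CPM in WT. Pfkfb2 averaged 67.6 ± 1.8 CPM in SRC1 KO and 64.4 ± 4.63 CPM in WT, and Pfkfb4 averaged 23.9 ± 3.04 CPM in SRC1 KO and 23.8 ± 1.96 CPM in WT (SD, n = 3 each). The log2 fold changes were −0.03 for Pfkfb3, 0.07 for Pfkfb2 and 0.00 for Pfkfb4. The signs of Pfkfb3 and Pfkfb4 changed in 3 and 5 of the 15 alternative settings.

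The 6 genes that turn triose phosphate into pyruvate all had positive log2 fold changes in a narrow band of 0.09 to 0.13, and all overlapped between groups. Gapdh, the dehydrogenase that makes NADH, had 1324, 1260.2 and 1374 CPM in SRC1 KO, against 1197, 1136 and 1373 CPM in WT. As for Gpi1, it was WT replicate 3 that overlapped the SRC1 KO libraries. The log2 fold change of Gapdh was 0.09 ± 0.089 (SE, adjusted p = 0.753 by edgeR), with an interval of 0.931 to 1.23-fold. Its transcript is at least 95% identical over at least 50% of its length to 78 other annotated genes, 68 of them pseudogenes, and reads that map to several places were not counted, so its level is uncertain. The kinase Pgk1, the first step that returns ATP, averaged 244 ± 14.8 CPM in SRC1 KO and 227 ± 18.4 CPM in WT, and the mutase Pgam1 averaged 141 ± 4.68 CPM in SRC1 KO and 133 ± 6.22 CPM in WT (SD, n = 3 each). Enolase makes phosphoenolpyruvate, and Eno2 is its neuronal form. Eno2 had 1009, 947 and 989 CPM in SRC1 KO, against 907, 820.5 and 961 CPM in WT, with a log2 fold change of 0.13 ± 0.081 (SE). Eno1, the form of most tissues, averaged 623 ± 21.8 CPM in SRC1 KO and 577 ± 35.2 CPM in WT (SD, n = 3 each). Pyruvate kinase, Pkm, had 1393, 1301 and 1404 CPM in SRC1 KO, against 1261, 1211 and 1383 CPM in WT. Near-identical copies, counted in the same way as for Gapdh, numbered 4 for Eno1, 2 for Pgk1, 2 for Ldha and 1 each for Aldoa, Pkm and Ldhb.

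Of the 15 glycolytic enzymes from hexokinase to pyruvate kinase, 14 had a positive log2 fold change, Hk2 being the exception, with a median of 0.09. Scaled by library totals alone, Aldoc became negative as well. Their summed level was 9850.1, 9325 and 9897 CPM in SRC1 KO, against 8884, 8635 and 9797 CPM in WT. WT replicate 3 lay inside the SRC1 KO range and the other 2 WT libraries below it. With the table's joined exon lengths, Gapdh was the most abundant of all 31 genes per length, at 2368 TPM in SRC1 KO and 2256 TPM in WT, followed by Aldoa at 1822 TPM in SRC1 KO and 1754 TPM in WT. Tpi1 (1132 TPM in SRC1 KO, 1059 TPM in WT) and Aldoc (1106 TPM in SRC1 KO, 1118 TPM in WT) came next. With the lengths of canonical transcripts this order changed. Aldoa, at 937 ± 36.0 CPM per kilobase in SRC1 KO and 885 ± 71.4 in WT, and Gapdh, at 929 ± 40.2 CPM per kilobase in SRC1 KO and 870 ± 86.5 in WT, then lay within their spread of each other (SD, n = 3 each). Pkm came next, at 558 ± 23.2 CPM per kilobase in SRC1 KO and 525 ± 36.1 in WT, ahead of Aldoc at 366 ± 11.3 in SRC1 KO and 363 ± 14.9 in WT (SD, n = 3 each).

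The lactate dehydrogenase subunits had opposite signs. Ldha encodes the muscle subunit, which favours lactate formation, and Ldhb the heart subunit, which favours lactate use and is the form known from neurons. Ldhb (chromosome 6, 142435975 to 142453683, minus strand) had 414, 388 and 419.6 CPM in SRC1 KO, against 332, 359 and 377 CPM in WT. All SRC1 KO libraries were above all WT libraries. The means were 407 ± 16.5 CPM in SRC1 KO and 356 ± 22.4 CPM in WT (SD, n = 3 each), a fold of 1.14 with an interval of 1.02 to 1.28, and edgeR's adjusted p was 0.288 (log2 fold change 0.19 ± 0.074 SE). Ldha had 189, 189.7 and 209 CPM in SRC1 KO, against 208, 199 and 237 CPM in WT. Only SRC1 KO replicate 3 reached into the WT range, and the log2 fold change was −0.13 ± 0.082 (SE, adjusted p = 0.572 by edgeR). Both signs held in all 15 alternative settings, with ranges of 0.13 to 0.24 for Ldhb and −0.18 to −0.05 for Ldha.

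Lactate crosses membranes on monocarboxylate transporters. Slc16a1 (MCT1) is the form of endothelium and oligodendrocytes, Slc16a3 (MCT4) an exporter of glycolytic cells and Slc16a7 (MCT2) the high-affinity importer of neurons. Slc16a1 had 45.7, 38.1 and 40.3 CPM in SRC1 KO, against 37.0, 42.0 and 29.8 CPM in WT. Its groups overlapped, and the log2 fold change was 0.19 ± 0.125 (SE, adjusted p = 0.611 by edgeR). The oligodendrocyte marker sums did not overlap between these groups. The endothelial and pericyte marker sums did, at 386, 369 and 352 CPM in SRC1 KO, against 343, 386 and 269 CPM in WT. The part of either cell type in the Slc16a1 values was not tested. Slc16a7 had 17.1, 15.1 and 16.8 CPM in SRC1 KO, against 17.3, 13.9 and 14.3 CPM in WT. Slc16a3, the least abundant of the 31 genes, had 2.36, 2.17 and 1.6 CPM in SRC1 KO, against 1.59, 1.85 and 1.64 CPM in WT. Its log2 fold change of 0.27 had the largest SE of the set, 0.207, and ran from 0.10 without the pair of libraries with most growth hormone counts to 0.42 without SRC1 KO replicate 3. Without SRC1 KO replicate 1 it was 0.15, and without WT replicate 2 it was 0.34. Exons of Csnk1d cover 10.3% of the Slc16a3 exons.

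Pyruvate enters mitochondria through a carrier made of Mpc1 and Mpc2. Mpc1 (chromosome 17) had 35.3, 37.2 and 36.9 CPM in SRC1 KO, against 29.6, 30.1 and 31.6 CPM in WT. The gap between the groups was wider than the range of either. The means were 36.4 ± 1.04 CPM in SRC1 KO and 30.4 ± 1.02 CPM in WT (SD, n = 3 each), a fold of 1.2 with an interval of 1.08 to 1.33 (log2 fold change 0.26 ± 0.066 SE). The adjusted p of 0.101 by edgeR missed the threshold, while DESeq2 gave 0.0419. Exons of 4930506C21Rik cover 11.2% of the Mpc1 exons, and the counting took no account of strand. Its partner Mpc2 had 37.6, 37.4 and 41.7 CPM in SRC1 KO, against 36.9, 36.5 and 38.3 CPM in WT, with a log2 fold change of 0.06 ± 0.070 (SE).

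Pdha1, the catalytic subunit of pyruvate dehydrogenase, averaged 170.2 ± 8.26 CPM in SRC1 KO and 160.2 ± 9.47 CPM in WT (SD, n = 3 each), and 20.9% of its exons are shared with Map3k15. The kinases that inactivate it did not share a sign. Pdk1, a known target of hypoxia-inducible factors, had 56.6, 56.8 and 60.4 CPM in SRC1 KO, against 64.5, 60.6 and 61.6 CPM in WT. These groups did not overlap, by a margin of less than 1 CPM, and the log2 fold change was −0.10 ± 0.064 (SE, adjusted p = 0.573 by edgeR). Pdk2, the most abundant of the kinases per length, had 95.8, 86.3 and 88.0 CPM in SRC1 KO, against 81.2, 75.0 and 89.7 CPM in WT. Pdk3 had 90.0, 73.8 and 79.3 CPM in SRC1 KO, against 73.3, 77.7 and 72.0 CPM in WT. Both overlapped, with log2 fold changes of 0.14 for Pdk2 and 0.12 for Pdk3.

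Isozyme shares compare genes of one reaction within a library, so they do not depend on library scaling. They were computed from TPM and are descriptions without a test. They rest on the same counts as the levels above, so they are no further evidence. By level, 17.6% of all genes did not overlap, and how often shares of other genes separate was not computed. Ldha made up 10.02, 10.6 and 10.8% of lactate dehydrogenase transcripts in SRC1 KO, against 13.3, 11.9 and 13.3% in WT. The means were 10.5 ± 0.434% in SRC1 KO and 12.8 ± 0.776% in WT (SD, n = 3 each), without overlap. The table's exon length for Ldha, 5342 bases, joins all its annotated exons, and with the length of the canonical transcript, 1588 bases, the share was 31.6% in SRC1 KO and 36.7% in WT. The level of the share thus depends on the length used. In a share of 2 genes the order of the libraries cannot change with the lengths, so its direction is no separate check. Slc2a1 made up 57.3, 57.4 and 58.2% of the summed Slc2a1 and Slc2a3 level in SRC1 KO, against 63.2, 61.1 and 66.6% in WT. With canonical lengths this became 35.7% in SRC1 KO and 41.7% in WT, so which of the 2 transporters leads depends on the length, while the difference was −6.01 percentage points with the table's lengths and −6.02 with the canonical ones.

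Hk2 made up 1.23 ± 0.071% of hexokinase transcripts in SRC1 KO and 1.72 ± 0.165% in WT (SD, n = 3 each). Pdk1 made up 17.4 ± 1.18% of the 3 kinases in SRC1 KO and 19.9 ± 1.12% in WT, and Mpc1 made up 31.3 ± 1.26% of the pyruvate carrier in SRC1 KO and 28.4 ± 0.307% in WT (SD, n = 3 each). None of these 3 shares overlapped between groups. With canonical lengths the Pdk1 share did not overlap either, while for Hk2 and Mpc1, each in a pair of genes, the lengths cannot change the overlap. The levels of the shares depended on the length, as for Ldha. With canonical lengths Mpc1 made up 53.6% of the carrier in SRC1 KO and 50.1% in WT, so that which subunit leads depends on the length, and Hk2 made up 0.756% of hexokinase in SRC1 KO and 1.06% in WT. For the other reactions the shares of every isozyme overlapped. Pfkm held 70.8% of phosphofructokinase in SRC1 KO and 70.1% in WT. Eno2 held 48.4% of enolase in SRC1 KO and 48.0% in WT (56.4% in SRC1 KO and 56.0% in WT with canonical lengths), Aldoc held 37.8% of aldolase in SRC1 KO and 38.9% in WT, and Slc16a1 held 83.1% of the monocarboxylate transporters in SRC1 KO and 82.6% in WT.

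**Figure D3:**
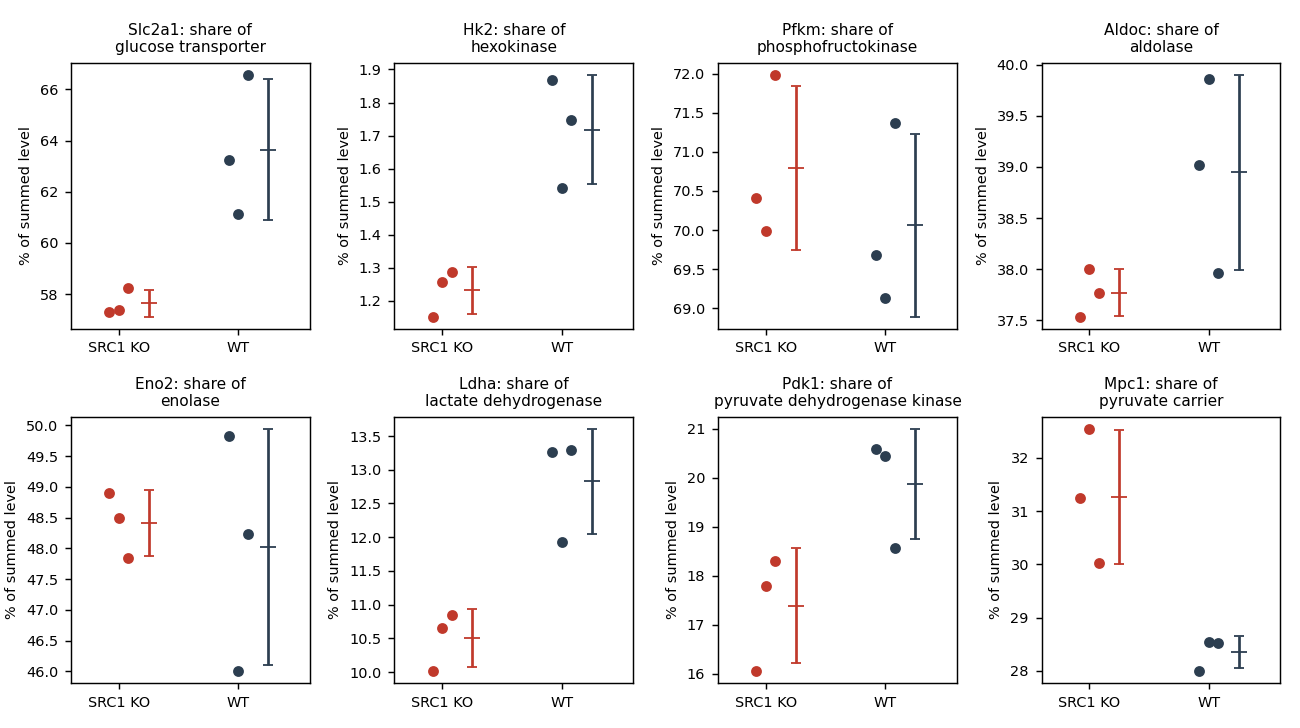
Share of 1 isozyme in the summed TPM of its reaction, in percent (vertical axes, which do not start at 0), for 8 reactions. Points are single libraries with SRC1 KO left and WT right, bars are the mean and SD of 3 libraries, and the points of Slc2a1, Hk2, Ldha, Pdk1 and Mpc1 separate by group while those of Pfkm, Aldoc and Eno2 overlap.

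The genes around the pathway were read from 8 lists of 110 genes, 105 of them tested. By edgeR 1 passed the threshold, beside 0.834% of all genes, and 19 had an unadjusted p under 0.05, beside 13.0%. DESeq2 called 6 of the tested genes, limma-voom 1, and limma-voom with quality weights 2. Over the 105 genes, 59 log2 fold changes were positive, beside 51.1% of all genes tested.

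In the list of monocarboxylate transport and lactate sensing, 6 of 14 log2 fold changes were positive and the median was −0.03. Hcar1, the lactate receptor, had 0.357, 0.378 and 0.307 CPM in SRC1 KO, against 1.42, 2.09 and 0.409 CPM in WT. WT replicate 3 was near the SRC1 KO libraries, and the log2 fold change of −1.90 ± 0.543 (SE) had an adjusted p of 0.176 by edgeR. The meningeal marker sums followed the same order of WT libraries, at 165, 286 and 65.8 CPM in WT replicates 1 to 3, and their part was not tested. Slc16a4, an orphan member of the family, averaged 2.27 ± 0.191 CPM in SRC1 KO and 1.5 ± 0.184 CPM in WT (SD, n = 3 each), with an adjusted p of 0.195 by edgeR.

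Among 18 tested side genes and tissue isozymes of glycolysis, 0 passed by edgeR, 3 had an unadjusted p under 0.05, DESeq2 called 3 and limma-voom 0 (1, Hkdc1, with quality weights), and the median was −0.03. Hkdc1, a hexokinase-like protein, had 0.453, 1.01 and 0.46 CPM in SRC1 KO, against 2.06, 1.93 and 1.42 CPM in WT (log2 fold change −1.50 ± 0.327 SE, adjusted p = 0.066 by edgeR). It passed in 4 of the 15 alternative settings. Eno4, an enolase known from sperm, had 4.96, 5.82 and 5.11 CPM in SRC1 KO, against 11.5, 7.95 and 7.05 CPM in WT (adjusted p = 0.0939 by edgeR). Hkdc1 and Eno4 were both lower in SRC1 KO without overlap, and DESeq2 called both. The ependymal and tanycyte markers were lower in the same libraries, and their part in these values was not tested.

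Of 15 genes of the pyruvate dehydrogenase complex and of pyruvate use, 0 passed by edgeR, DESeq2 or limma-voom, 3 had an unadjusted p under 0.05 and the median was 0.09. Pcx, pyruvate carboxylase, had 113, 111 and 109 CPM in SRC1 KO, against 94.7, 94.4 and 101 CPM in WT (log2 fold change 0.20 ± 0.061 SE, adjusted p = 0.17 by edgeR). The groups did not overlap. Gpt2, the mitochondrial alanine aminotransferase, averaged 59.1 ± 1.75 CPM in SRC1 KO and 69.0 ± 7.17 CPM in WT, and Me2, a mitochondrial malic enzyme, averaged 59.6 ± 3.09 CPM in SRC1 KO and 68.0 ± 5.58 CPM in WT (SD, n = 3 each). Their log2 fold changes were −0.22 and −0.19.

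Of 15 tested glycogen genes, 0 passed by edgeR and 3 had an unadjusted p under 0.05, while DESeq2 called 1, Pygm, and limma-voom 0. Pygm, the muscle form of glycogen phosphorylase, had 77.8, 79.5 and 74.99 CPM in SRC1 KO, against 44.9, 63.9 and 66.1 CPM in WT (log2 fold change 0.41 ± 0.135 SE, adjusted p = 0.242 by edgeR). Pygl, the liver form, ran the other way, with 11.1, 12.3 and 12.6 CPM in SRC1 KO, against 12.8, 15.4 and 16.4 CPM in WT. Ugp2, which makes the UDP-glucose for glycogen, averaged 83.4 ± 3.5 CPM in SRC1 KO and 73.5 ± 6.02 CPM in WT (SD, n = 3 each).

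The remaining 4 lists had 0 genes past the threshold by edgeR, DESeq2 and limma-voom. The pentose phosphate pathway had a median of 0.06 over 8 genes, with 1 unadjusted p under 0.05, that of Rpe, ribulose phosphate epimerase, at 17.6 ± 1.46 CPM in SRC1 KO and 15.02 ± 0.698 CPM in WT (SD, n = 3 each). The NADH shuttles, which pass reducing power from the cytosol to mitochondria, had a median of 0.07 over 10 genes. Got1, their cytosolic aspartate aminotransferase, had 372, 349.7 and 368 CPM in SRC1 KO, against 306, 313 and 343 CPM in WT, and was the 1 gene of that list with an unadjusted p under 0.05. Mdh1, the cytosolic malate dehydrogenase of the same shuttle, averaged 716 ± 28.3 CPM in SRC1 KO and 649 ± 46.5 CPM in WT (SD, n = 3 each). Other sugar transporters had a median of −0.02 over 9 genes, with 0 at an unadjusted p under 0.05, and Slc2a13, a myo-inositol carrier, averaged 157 ± 6.75 CPM in SRC1 KO and 147 ± 2.1 CPM in WT (SD, n = 3 each). The sums of that list did not overlap, at 211 to 222 CPM in SRC1 KO and 205.3 to 205.9 CPM in WT. The hypoxia-inducible factors and their targets outside glycolysis had a median of 0.11 over 16 genes, with 10 positive and 3 at an unadjusted p under 0.05. Vegfa, the vascular growth factor, averaged 80.8 ± 9.54 CPM in SRC1 KO and 65.4 ± 7.76 CPM in WT, and the mitophagy receptor Bnip3l averaged 113 ± 3.83 CPM in SRC1 KO and 100.2 ± 5.68 CPM in WT (SD, n = 3 each). Adm, adrenomedullin, had 0.357, 0.302 and 0.285 CPM in SRC1 KO, against 0.417, 0.871 and 1.25 CPM in WT, so these 3 genes did not share a direction. The Adm values rest on 15, 12 and 13 counts in SRC1 KO and 17, 33 and 52 in WT. The summed level of the hypoxia list was higher in SRC1 KO without overlap, at 1061 to 1074 CPM, against 944 to 1018 CPM in WT.

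**Figure D4:**
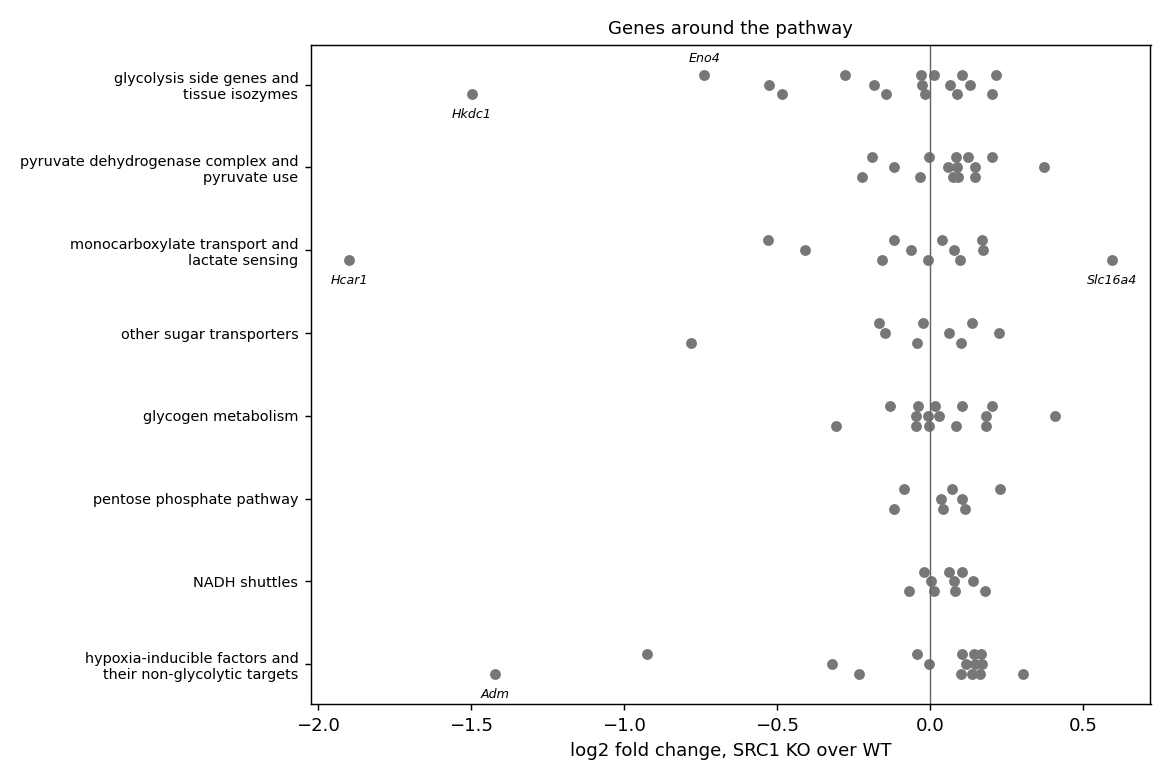
Log2 fold change of SRC1 KO over WT (horizontal axis) for the genes of the 8 lists around the pathway that are reported here (rows). Each point is 1 tested gene, none of the genes drawn passed the threshold by edgeR, and most points lie within 0.3 of 0, with Hcar1, Hkdc1 and Adm farthest below it.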

How the data were processed

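Values start from unnormalised counts of read pairs, deposited by the authors as 1 table. Alignment used STAR 2.7.10a, as the submitters' processing notes say, and pairs were counted with featureCounts over exons grouped by gene in the RefSeq annotation of mm39 (GRCm39), per the file headers. The header gives version 2.0.0 and the notes give 2.0.3. The command set no strand, multi-mapping or multi-gene option, so reads shared with a copy or an overlapping gene were not counted. The exon length of each gene is the deposited value, per the file headers.

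Every row had a gene name and all columns of values were used. The comparison of 3 SRC1 KO with 3 WT libraries was made in edgeR 4.0.16 (R 4.3.3) after TMM scaling, with the package's expression filter by group (minimum count 10), robust quasi-likelihood F-tests and a Benjamini-Hochberg adjusted p under 0.05 over all 20257 genes tested. The common biological coefficient of variation was 12.3%. CPM values are scaled by TMM, and TPM values divide counts by exon length. SDs are over 3 libraries, and the number of libraries limits the precision. Pairs of libraries of 1 group had a chi-square per degree of freedom of 8.87 to 18.9, so all 6 were kept as replicates. The script was checked on simulated counts.

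The members and lists were chosen with earlier results of these data known, and no test was made over a list. Named genes were every member, Ncoa1, up to 3 genes with the lowest p in each list, and any list gene past the threshold. A few list genes covered by it are not reported here, though the list counts and medians include them. The growth hormone, Hcrt, Pmch, Avp, Oxt, Agrp and Trh counts were looked up beyond that rule, as were the pituitary markers named. Alternatives were RLE size factors, library totals, other filters, each library left out, a replicate block, DESeq2 1.42.0, limma-voom (limma 3.58.1) with and without quality weights and, chosen after seeing the data, leaving out the pair with most growth hormone counts and canonical GENCODE transcript lengths.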

Additional observations from a re-analysis of the deposited data

How the results depend on the processing

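None of the 31 genes passed in 13 of the 15 alternative settings. With no filter on low counts 1 passed (Slc2a1), and with DESeq2 1 passed (Mpc1), while leaving out each library in turn gave 0 every time. Their median log2 fold change stayed positive, between 0.06 (without both libraries with most growth hormone counts, an alternative chosen after seeing the data) and 0.12 (without WT replicate 3). It was 0.07 to 0.12 as single libraries were left out. Of the 31 genes, 27 kept their sign in all 15 settings, and Hk1, Aldoc, Pfkfb3 and Pfkfb4 changed it in at least 1.

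The number of genes called over the whole table, 169, was 66 with library totals alone, 966 with no filter, 84 with at least 1 CPM in 3 libraries, 29 without the growth hormone pair, 821 by DESeq2, 103 by limma-voom, 401 with quality weights and 36 to 260 as single libraries were left out, with 36 without SRC1 KO replicate 1, 69 without WT replicate 1 and 260 without SRC1 KO replicate 2. For the pathway lists, 1 gene was called, against 6 with no filter, 6 by DESeq2, 2 with quality weights and 1 to 2 as single libraries were left out (2 without WT replicate 3, which adds Hcar1, and 2 without SRC1 KO replicate 2, which adds Hkdc1). The causes were not tested.

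Same-numbered libraries had deviations correlated at −0.206, 0.351 and 0.224, so the numbers were not taken to pair the samples. The fit with a replicate block called 155 genes, 0 of the 31 and 2 pathway genes, with a member median of 0.09.

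The spread between 3 libraries a group, with SEs of 0.059 to 0.207 on the log2 scale for the 31 genes, limits what could be called. Slc16a3 and Hk2 had the fewest counts of the set, and their SEs of 0.207 and 0.14 were the largest. Of 300 list medians recomputed, 13 moved beyond the spread between replicates, as did 6 of 192 isozyme share differences.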
